A study of Homo sapiens with 6 samples.

Results

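The genes described here are 42 genes of the actin cytoskeleton, out of 20289 genes in the deposited table, found by matching the table's Ensembl identifiers to gene symbols. They were listed by name and role, from the actins to the proteins that nucleate, cap, sever, store, bundle and pull on filaments. The set was chosen by its footprint levels as well, since the FPKM values of shTRMT6 and shControl were known when it was drawn up. For that reason the comparison between the groups is given for the members as a description. Where a member is said to be past a limma threshold, that sorts the values and is no test of them, since the same values stood behind the choice. The 3 libraries labelled shTRMT6 came from RKO cells, a human colorectal cancer line, carrying a short hairpin RNA against TRMT6. The other 3 libraries, labelled shControl, came from RKO cells with a control hairpin, which the labels also call WT. All 6 libraries hold ribosome footprints, which are mRNA pieces shielded from nuclease by ribosomes. The labels do not say how many hairpins or clones were used, or whether the 3 libraries of a group were separate cultures, so the spread that every p-value rests on is that among these libraries and may be technical. The comparison addresses translation with less TRMT6, which with TRMT61A methylates adenosines of tRNA.

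Actin monomers polymerise into filaments that give the cell its shape, drive its leading edge and, with myosin, contract. Profilins and thymosins hold the monomer pool, the Arp2/3 complex starts branches, capping protein stops growth at the fast-growing end, and cofilins with their helpers take old filaments apart. Tropomyosins coat filaments, myosin II pulls on them, cross-linkers join them into networks, and ERM proteins and focal adhesion proteins tie them to the membrane. In epithelial cancer cells this machinery is known for its part in adhesion, division and migration.

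TRMT6 footprints were lower in the knockdown, at 20.7, 21.9 and 24.1 FPKM in shTRMT6 and 57.6, 58.4 and 95.3 FPKM in shControl. FPKM is a read number divided by gene length and library size, as the authors computed it with an annotation not stated here. Over all tested genes, the Pearson's r of log2(FPKM + 1) with log2 coding length ran from -0.37 to -0.34 in shTRMT6. In shControl it ran from -0.48 to -0.38. Ratios between genes of unlike length are therefore a description, and the part of this difference in them was not tested. Log2 fold changes here are of FPKM + 1, while folds written as 2.70-fold and the like are ratios of mean FPKM. On the log2 scale TRMT6 fell by 1.58 with an SE of 0.27 (adjusted p = 0.00301, limma). The FPKM summed to between 1531873 and 1582826 per shTRMT6 library and between 1463344 and 1760307 per shControl library. Judged from the spacing of low values, about 2591000 to 4049000 reads lay behind each shTRMT6 library and 2611000 to 3922000 behind each shControl library. Of 7 epithelial and colon markers, EPCAM, KRT8, KRT18 and CDX2 had footprints in all 6 libraries, CDH1 and VIL1 were at 0 in all of them and KRT19 in all but 1. Of 16 markers of leukocytes, fibroblasts, endothelium and muscle, 9 were at 0 in all libraries and none passed 4.54 FPKM. Their sum was 4.37 to 8.97 FPKM in shTRMT6 and 0.84 to 1.81 FPKM in shControl, and their part in the results was not tested. Footprint level joins mRNA amount and ribosomes per mRNA, and fewer cells with a transcript cannot be told apart from less RNA per cell.

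Among members, the actins, cofilins, PFN1, TAGLN2, the myosin light chains and subunits of capping protein and the Arp2/3 complex had fewer footprints in shTRMT6. The thymosins had more, and no cross-linker, ERM or adhesion protein passed the threshold. Of the 42 members, 41 passed the filter of at least 1 FPKM in at least 3 libraries. RDX did not. Among the 41, 15 were past the threshold of a limma adjusted p under 0.05 as lower in shTRMT6, where 9.04% of the 11566 tested genes were, and 1 as higher, where 26.5% were (35.6% in either direction). The median log2 fold change of the members was -0.39, beside 0.39 over all tested genes. Every shTRMT6 library lay below every shControl library for 20 members, against 14.3% of all tested genes, and above for 7 members, against 37.0%. Since the members were chosen with this contrast known, nothing is read from these counts. With each library scaled to the same median, all tested genes had a median of -0.07, and 21 members were lower and 0 higher, where 19.7% and 13.1% of all tested genes were.

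**Figure D1:**
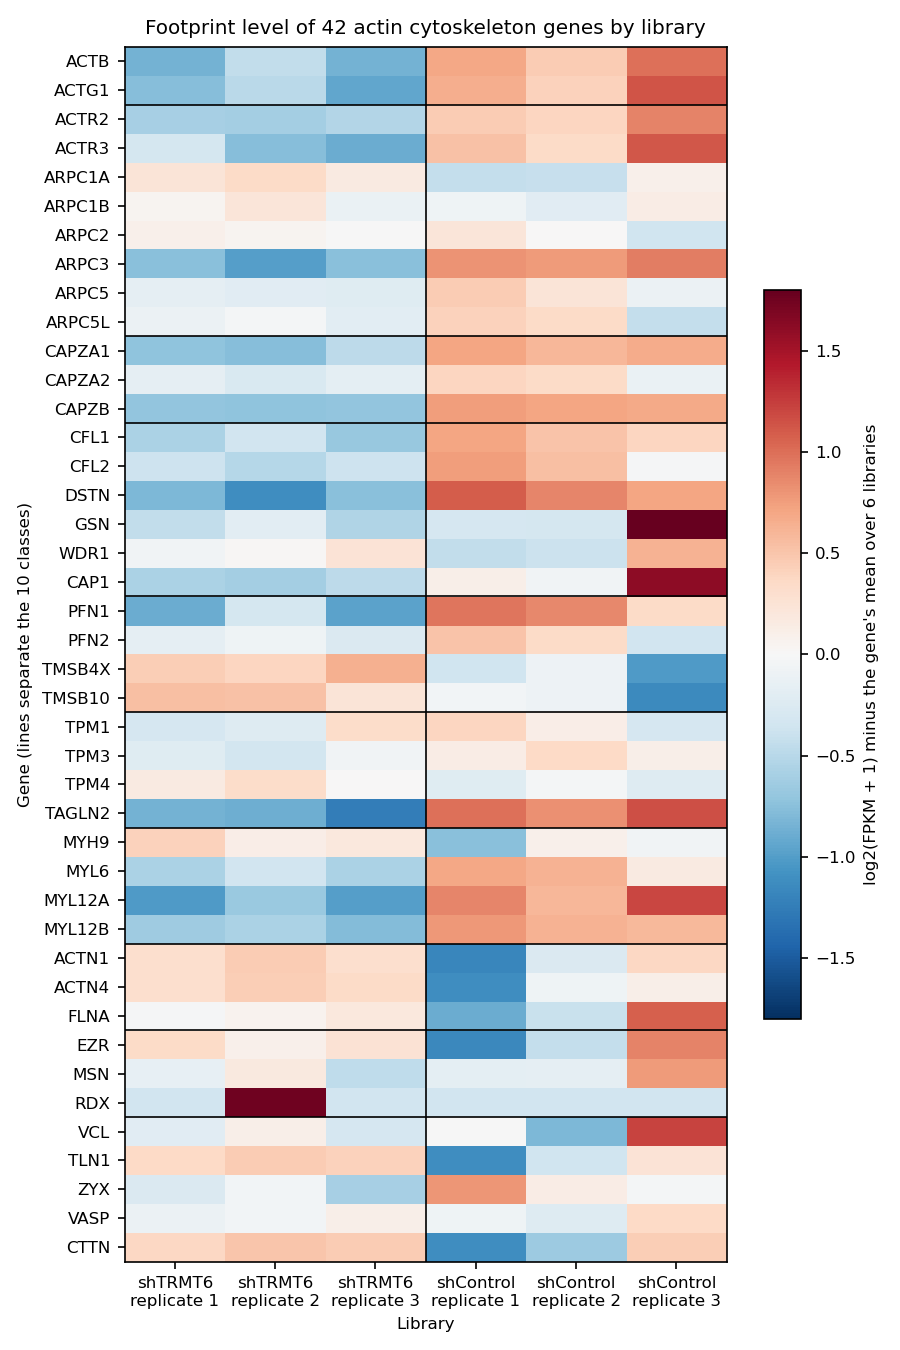
Footprint level of the 42 members in each library, drawn as log2(FPKM + 1) minus the gene's mean over the 6 libraries, with shTRMT6 libraries left of shControl libraries and lines between the 10 classes. The actins, ARPC3, CAPZB, DSTN and TAGLN2 are low in all 3 shTRMT6 libraries, and shControl replicate 3 stands apart for CAP1, GSN, FLNA and VCL.

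The control libraries did not look alike for these genes. Among the 12 tested members with a coding sequence of at least 1500 nt, shControl replicate 3 had the highest control value for 10. Among the 29 shorter members it had the highest for 11 and the lowest for 17. The summed FPKM of the 13 members of at least 1500 nt, RDX included, was 1282, 1361 and 1271 in shTRMT6, against 940.3, 1034 and 1576 in shControl. Without shControl replicate 3, 22 members were past the threshold as lower, where 12.3% of all tested genes were, and 10 as higher, where 28.3% were. The cause of its different profile was not tested, and values without it are given below wherever they matter.

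The actins themselves were lower. ACTB (ENSG00000075624, minus strand of chromosome 7 from 5527147 to 5563784, GRCh38), cytoplasmic beta-actin, had 1979, 2628 and 1978 FPKM in shTRMT6 and 5778, 4881 and 7099 FPKM in shControl. ACTG1 (ENSG00000184009, minus strand of chromosome 17 from 81509971 to 81523847), gamma-actin, had 1022, 1248 and 910.05 FPKM in shTRMT6 and 2749, 2322 and 3808 FPKM in shControl. For both genes the lowest control library lay far above the highest knockdown library. The mean of ACTB was 2195 ± 375 FPKM in shTRMT6 and 5919 ± 1116 FPKM in shControl (SD, n = 3 each), 2.70-fold lower, with a log2 fold change of -1.43 (SE 0.23). That of ACTG1 was 1059.9 ± 172 FPKM in shTRMT6 and 2959.8 ± 765 FPKM in shControl (SD, n = 3 each), 2.79-fold lower (log2 fold change -1.46, SE 0.24).

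The proportion of the actin paralogs overlapped between the groups. ACTB was 1.94, 2.11 and 2.17 times ACTG1 in the shTRMT6 libraries and 2.10, 2.10 and 1.86 times ACTG1 in the shControl libraries. Their coding sequences, read from GENCODE 29 transcripts, are identical at 1029 of 1128 aligned positions, and the first 60 bases are shown because a footprint must cross a difference to be told apart. Capitals mark the 10 positions that differ between ACTB and ACTG1.
ACTB: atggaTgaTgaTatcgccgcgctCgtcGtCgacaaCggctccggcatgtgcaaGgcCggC
ACTG1: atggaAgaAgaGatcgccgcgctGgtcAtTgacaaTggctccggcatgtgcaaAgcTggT
The longest stretch common to both runs over 59 bases, from position 832 to 890 of each coding sequence. Of all windows of 28 nt in the ACTB coding sequence, 9.36% are also in ACTG1, and 54.0% occur in some transcript of another gene, with 24.1% in protein-coding transcripts and 30.0% in other transcripts alone. For ACTG1 the share in other genes was 38.6%, so the division of reads among these genes is uncertain. Of the 42 members, 21 had over 25% of their windows in transcripts of other genes, and 11 had none. Summed, the actins had 3255 ± 540.5 FPKM in shTRMT6 and 8879 ± 1877 FPKM in shControl (SD, n = 3 each). ACTA2, the smooth muscle actin, was close to absent, at 1.54, 2.18 and 1.72 FPKM in shTRMT6 and 0.81, 0.84 and 0 FPKM in shControl.

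The proteins that bind monomers moved apart. PFN1 (ENSG00000108518, minus strand of chromosome 17 from 4945652 to 4949061), profilin 1, which feeds monomers to growing ends, had 3610.25, 5424 and 3437 FPKM in shTRMT6 and 13131, 12252 and 8566 FPKM in shControl. It was 2.72-fold lower, with no overlap between the groups (log2 fold change -1.45, SE 0.26). Of its 28-nt windows, 40.15% occur in transcripts of other genes. Its paralog PFN2 had 497, 524 and 463 FPKM in shTRMT6 and 791, 705 and 435 FPKM in shControl, so the groups overlapped (log2 fold change -0.34, SE 0.25). The ratio of PFN1 to PFN2 was 7.27, 10.3 and 7.43 in shTRMT6, below the 16.6, 17.4 and 19.7 of shControl in every library. Without shControl replicate 3, PFN2 had a log2 fold change of -0.60 and was past the threshold, as it was with median scaling (-0.83). Without shControl replicate 1 it was at -0.17, and with trends of level and coding length removed at 0.09.

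Thymosins, small proteins that keep monomers from polymerising, had higher levels in every knockdown library. TMSB10 (ENSG00000034510, plus strand of chromosome 2 from 84905625 to 84906675) had 22575, 22368 and 18228 FPKM in shTRMT6 and 14979, 14585 and 7009 FPKM in shControl. TMSB4X (ENSG00000205542, plus strand of chromosome X from 12975108 to 12977227) had 573, 549.97 and 658 FPKM in shTRMT6 and 329.55, 396 and 207 FPKM in shControl. In both genes shControl replicate 3 was the lowest library. The log2 fold change was 0.86 (SE 0.31) for TMSB10 and 0.98 (SE 0.26) for TMSB4X, of which TMSB4X alone was past the threshold. Without shControl replicate 3 TMSB10 was at 0.50 and TMSB4X at 0.71, both past the threshold, and with median scaling they were at 0.37 and 0.48, where neither was. TMSB10 had the highest level per length of all 42 members in every shTRMT6 library and in shControl replicates 1 and 2. In shControl replicate 3, PFN1 and ACTB stood above it.

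The thymosin coding sequences are among the shortest in the table, at 132 nt without the stop codon, and are printed whole to show how little sequence a footprint has to land on. Capitals mark the 37 of 135 positions, stop codon included, that differ when TMSB4X and TMSB10 are laid side by side.
TMSB4X: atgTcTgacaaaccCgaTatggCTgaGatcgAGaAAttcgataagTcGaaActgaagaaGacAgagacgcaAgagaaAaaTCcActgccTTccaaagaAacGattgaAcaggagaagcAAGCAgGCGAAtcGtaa
TMSB10: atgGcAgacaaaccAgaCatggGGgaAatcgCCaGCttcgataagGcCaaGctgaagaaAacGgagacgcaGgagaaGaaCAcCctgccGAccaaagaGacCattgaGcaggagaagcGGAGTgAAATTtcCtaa
No window of 28 nt is common to the TMSB4X and TMSB10 sequences. Every window of TMSB4X (100%) is also found in a transcript of another gene, against 29.6% for TMSB10, so the level of TMSB4X in particular depends on how the authors placed reads with several origins. By estimate, TMSB4X rested on 209 to 294 reads per shTRMT6 library and 107 to 143 per shControl library. The sum of thymosins over the sum of actins was 7.71, 5.91 and 6.54 in shTRMT6, against 1.80, 2.08 and 0.662 in shControl. The groups did not overlap in that ratio, while the ratio of profilins to actins, 1.37, 1.53 and 1.35 in shTRMT6 and 1.63, 1.80 and 0.825 in shControl, did.

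**Figure D2:**
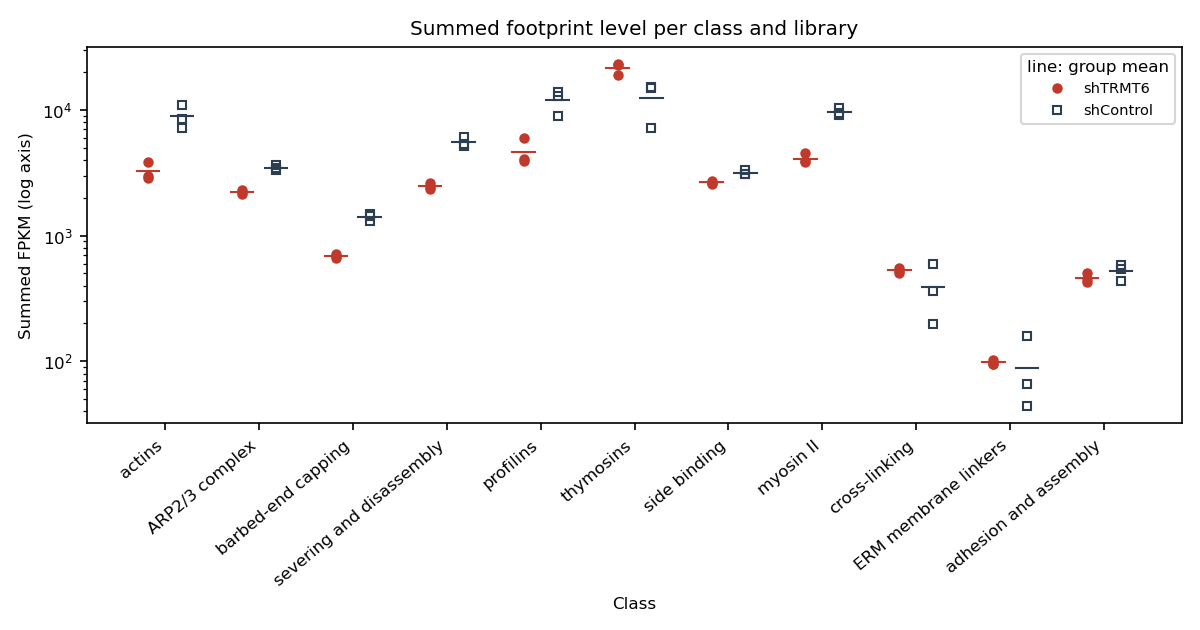
Summed FPKM of each class in each library on a log axis, with shTRMT6 as filled circles left of shControl as open squares and lines at the group means; monomer-binding proteins are split into profilins and thymosins. Actins, Arp2/3 complex, capping, severing, profilin, side-binding and myosin II sums are lower in all 3 shTRMT6 libraries. The thymosin sum is higher, at 21651 FPKM on average against 12502 FPKM.

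Subunits of the Arp2/3 complex, which binds the side of a filament and starts a branch, did not move together. ARPC3 (ENSG00000111229, minus strand of chromosome 12 from 110434825 to 110450422) had 344, 291 and 345 FPKM in shTRMT6 and 1024, 990.3 and 1108 FPKM in shControl. It was 3.19-fold lower (log2 fold change -1.67, SE 0.19). The actin-related subunits were lower as well, ACTR2 at 177, 176 and 186 FPKM in shTRMT6 and 369, 350.1 and 502 FPKM in shControl (log2 fold change -1.16, SE 0.21). ACTR3 had 171, 124 and 114 FPKM in shTRMT6 and 308, 270.25 and 461 FPKM in shControl (log2 fold change -1.32, SE 0.26). These 3 subunits showed no overlap between the groups. Of their 28-nt windows, 77.25% for ARPC3, 55.87% for ACTR2 and 14.07% for ACTR3 occur in transcripts of other genes.

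The other subunits of the complex changed less. ARPC2, which with ARPC4 forms the core of the complex, had 623, 602 and 576 FPKM in shTRMT6 and 679.9, 584 and 452 FPKM in shControl, with overlapping groups (log2 fold change 0.09, and -0.41 with median scaling). ARPC1A, one of a pair of alternative subunits, was higher in every knockdown library, at 115, 125 and 109.9 FPKM against 72.4, 72.9 and 104 FPKM in shControl (log2 fold change 0.50, SE 0.23, not past the threshold, and 0.01 with median scaling). Its alternative ARPC1B had 156, 175 and 138 FPKM in shTRMT6 and 143, 130.4 and 166 FPKM in shControl (log2 fold change 0.10, and -0.40 with median scaling). ARPC5 had 308, 299.8 and 296 FPKM in shTRMT6 and 475, 404 and 319 FPKM in shControl (log2 fold change -0.39, SE 0.21, past the threshold at -0.88 with median scaling, and -0.01 with trends removed). ARPC5L had 391, 414 and 372 FPKM in shTRMT6 and 563, 539 and 313 FPKM in shControl, with overlapping groups and a log2 fold change of -0.22 (SE 0.25), which was 0.19 with trends removed. Without shControl replicate 3, ARPC1A was past the threshold as higher and ARPC5 and ARPC5L as lower. The highest subunit among the 8 members was 5.41, 4.84 and 5.24 times the lowest in the shTRMT6 libraries, and 14.2, 13.6 and 10.6 times in the shControl libraries.

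ARPC1A and ARPC1B lie next to each other on chromosome 7, and GENCODE 29 holds a coding gene, AC004922.1, that spans both. Of the 28-nt windows, 88.0% for ARPC1A and 97.4% for ARPC1B also occur in it. It was listed at 4.69, 0 and 0 FPKM in shTRMT6 and 0, 0.74 and 0 FPKM in shControl, so few reads were placed there. ARPC4, a subunit outside the 42 members, had 237, 251 and 259 FPKM in shTRMT6 and 424, 466 and 395 FPKM in shControl and fell (log2 fold change -0.78, SE 0.19, adjusted p by limma 0.0124). The readthrough gene ARPC4-TTLL3, which can share its reads, had 36.3, 28.1 and 28.4 FPKM in shTRMT6 and 0, 0 and 1.05 FPKM in shControl.

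Capping protein, a dimer of an alpha and a beta subunit that closes the fast-growing filament end, was lower in its CAPZB and CAPZA1 subunits. CAPZB (ENSG00000077549, minus strand of chromosome 1 from 19338776 to 19485539), the beta subunit, had 229, 226 and 229 FPKM in shTRMT6 and 630.5, 614 and 602 FPKM in shControl. Its libraries were the most alike within each group among the members described here, with means of 228 ± 1.88 FPKM in shTRMT6 and 616 ± 14.1 FPKM in shControl (SD, n = 3 each), 2.70-fold lower (log2 fold change -1.43, SE 0.18). Only 0.13% of its 28-nt windows occur in another gene, while the share is 37.05% for CAPZA1. CAPZA1 had 145.5, 141 and 173 FPKM in shTRMT6 and 393, 365 and 381 FPKM in shControl (log2 fold change -1.31, SE 0.20). The other alpha subunit, CAPZA2, had 318, 296 and 317 FPKM in shTRMT6 and 466, 452 and 327 FPKM in shControl, a smaller difference with groups that just missed each other (log2 fold change -0.40, SE 0.21, and past the threshold at -0.56 without shControl replicate 3 and at -0.90 with median scaling). CAPZB was 0.494, 0.517 and 0.467 times the sum of the alpha subunits in shTRMT6 and 0.734, 0.751 and 0.851 times in shControl.

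Among proteins that sever or dismantle filaments, those of the cofilin family were past the threshold as lower. DSTN (ENSG00000125868, plus strand of chromosome 20 from 17569863 to 17609919), destrin, had 439.9, 355 and 459.6 FPKM in shTRMT6 and 1649.8, 1416 and 1269 FPKM in shControl, 3.46-fold lower (log2 fold change -1.79, SE 0.21). CFL1, the main non-muscle cofilin, had 1598, 1858 and 1469 FPKM in shTRMT6 and 3861, 3362 and 3082 FPKM in shControl (log2 fold change -1.07, SE 0.20). CFL2 had 162, 147 and 162 FPKM in shTRMT6 and 354, 306 and 207 FPKM in shControl (log2 fold change -0.84, SE 0.24), and was not past the threshold without shControl replicate 1 (-0.68) or 2 (-0.78) or without any 1 shTRMT6 library (-0.86 to -0.79). None of these 3 genes had overlapping groups. CFL2 has no 28-nt window in another gene, while the share is 28.5% for CFL1 and 50.3% for DSTN.

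For the cofactors of disassembly, the size of the log2 fold change depended much on shControl replicate 3. CAP1, which recycles cofilin-bound monomers, had 82.0, 79.1 and 87.5 FPKM in shTRMT6 and 132, 117 and 375 FPKM in shControl, with no overlap between the groups. Its log2 fold change was -1.11 (SE 0.39), not past the threshold, and -0.58 without shControl replicate 3, past it. CAP1 was also past it with median scaling (-1.60), quantile normalization (-1.24) and trends removed (-1.29). WDR1, which speeds severing by cofilin, had 143, 151 and 178 FPKM in shTRMT6 and 109, 114 and 231 FPKM in shControl (log2 fold change 0.14, -0.36 with median scaling, and 0.48 and past the threshold without shControl replicate 3). GSN, gelsolin, which severs and then caps, had 7.21, 8.77 and 6.65 FPKM in shTRMT6 and 8.05, 7.96 and 37.7 FPKM in shControl. Apart from that library its groups were alike, with a log2 fold change of -0.78 that became -0.08 without it. GSN was at -1.43 with quantile normalization and at -1.57, past the threshold, with trends removed.

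**Figure D3:**
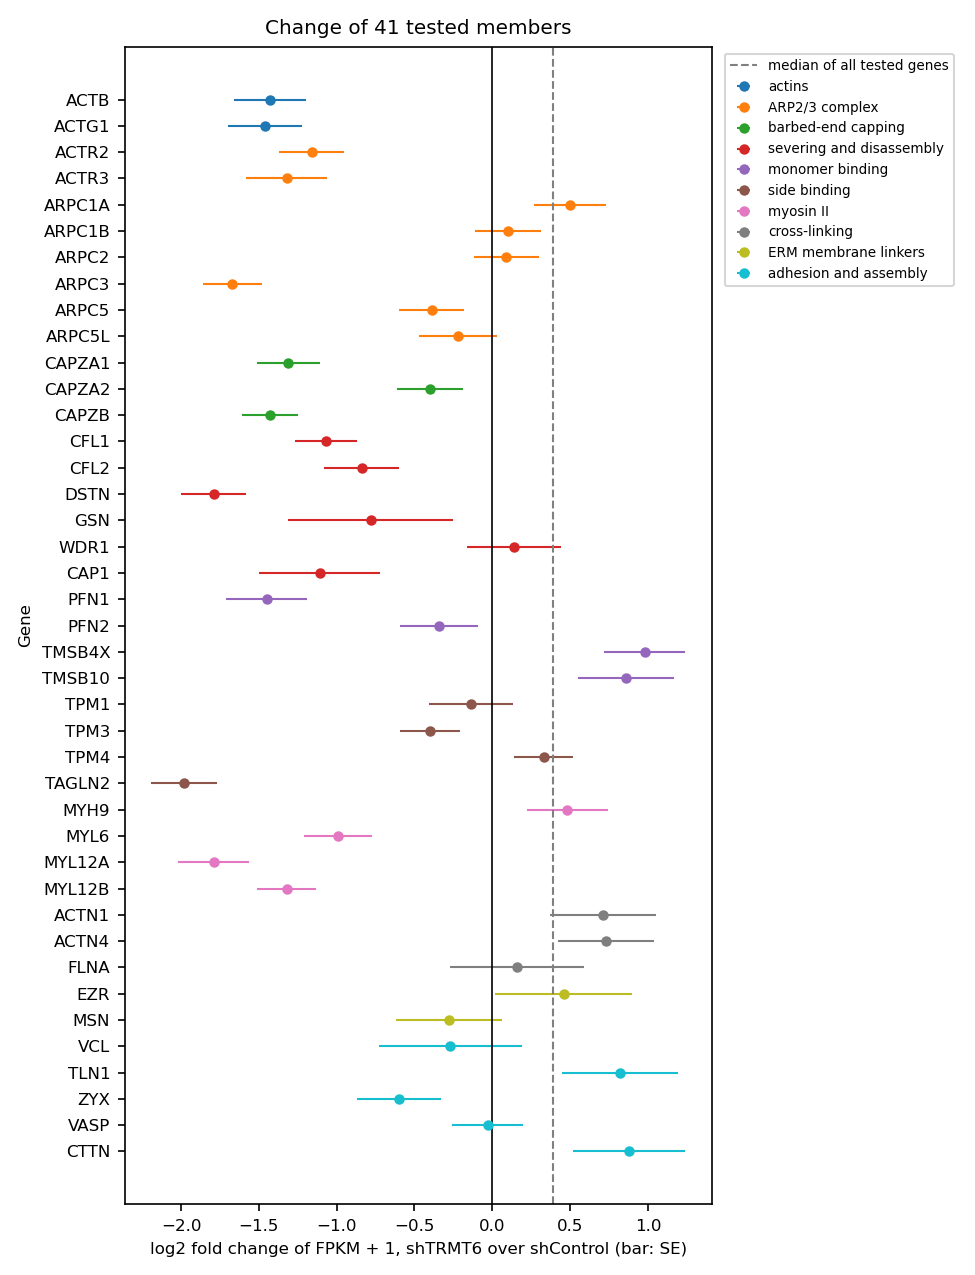
Log2 fold change of FPKM + 1, shTRMT6 over shControl, of the 41 tested members by class, with bars of 1 SE and a dashed line at the median of all tested genes, 0.39. The values run from -1.98 for TAGLN2 to 0.98 for TMSB4X, and the bars are longest for GSN, VCL, EZR and FLNA.

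Among proteins that bind along the filament, TAGLN2 (ENSG00000158710, minus strand of chromosome 1 from 159918107 to 159925732), transgelin 2, had the lowest log2 fold change of all members. It had 182, 179.6 and 139 FPKM in shTRMT6 and 662, 585 and 739.9 FPKM in shControl, 3.96-fold lower (log2 fold change -1.98, SE 0.21). Of its 28-nt windows, 44.85% occur in transcripts of other genes. The tropomyosins, which line the filament groove and set which proteins reach it, differed from each other. TPM3 had 956, 882 and 1063 FPKM in shTRMT6 and 1216, 1424 and 1186 FPKM in shControl (log2 fold change -0.40, SE 0.19, and 0.14 with quantile normalization). TPM4 had 1411, 1588 and 1277 FPKM in shTRMT6 and 1091, 1231 and 1074 FPKM in shControl (log2 fold change 0.33, SE 0.19). Neither passed the threshold, though TPM3 did without shControl replicate 3 (-0.45) and with median scaling (-0.89), and TPM4 was at -0.17 with median scaling, but at 0.88 and 0.82, past it, with quantile normalization and with trends removed. TPM4 was 1.48, 1.80 and 1.20 times TPM3 in shTRMT6 and 0.897, 0.864 and 0.905 times in shControl. TPM1 had 72.6, 75.9 and 113 FPKM in shTRMT6 and 117, 97.8 and 72.4 FPKM in shControl, with overlapping groups (log2 fold change -0.14, SE 0.27). These genes make many isoforms, which the table does not separate.

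Myosin II is the motor that contracts actin bundles. Its 3 light chains among the members were past the threshold as lower, and its heavy chain MYH9 was not past it. MYL12A (ENSG00000101608, plus strand of chromosome 18 from 3247481 to 3256236), a regulatory light chain, had 836, 1061 and 845 FPKM in shTRMT6 and 3103, 2560.0 and 3891 FPKM in shControl, 3.48-fold lower (log2 fold change -1.79, SE 0.23). MYL12B, its neighbour and near copy on the same strand from 3261479 to 3278431, had 495, 519 and 448 FPKM in shTRMT6 and 1329, 1186 and 1151 FPKM in shControl (log2 fold change -1.32, SE 0.19). Their coding sequences are identical at 494 of 519 aligned positions. The longest run they share, 77 bases from position 367 to 443 of MYL12A and from 370 to 446 of MYL12B, is shown because a read inside it fits either gene.
MYL12A and MYL12B: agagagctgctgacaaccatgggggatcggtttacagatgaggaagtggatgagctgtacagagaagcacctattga
Of the 28-nt windows of MYL12A, 38.7% occur in MYL12B. The essential light chain MYL6 had 2446, 2835.5 and 2424 FPKM in shTRMT6 and 5863, 5600.1 and 4036 FPKM in shControl (log2 fold change -0.99, SE 0.22). The heavy chain MYH9 had 147, 119.7 and 125 FPKM in shTRMT6 and 65.1, 118 and 105 FPKM in shControl, higher in every knockdown library by a margin that was small beside the control spread (log2 fold change 0.48, SE 0.26). MYH9 was at -0.01 with median scaling and at -0.14 with trends removed. MYL6 was 16.7, 23.7 and 19.4 times MYH9 in shTRMT6 and 90.1, 47.6 and 38.4 times in shControl. MYL9, a light chain outside the 42 members, fell to 70.82, 101.25 and 78.23 FPKM in shTRMT6, against 185.78, 171.99 and 151.88 FPKM in shControl (log2 fold change -1.03, SE 0.22, adjusted p by limma 0.00787). MYL6B, a light chain gene that overlaps MYL6 on chromosome 12, went the other way and is named after its value was seen. It had 215, 222 and 178 FPKM in shTRMT6 and 155, 139 and 89.7 FPKM in shControl (log2 fold change 0.71, SE 0.25). MYL6B was not past the threshold.

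The large cross-linkers had higher values in shTRMT6 than in shControl replicates 1 and 2. ACTN1, an alpha-actinin, had 258, 288 and 259.95 FPKM in shTRMT6 and 92.4, 175 and 271 FPKM in shControl. ACTN4, the other non-muscle alpha-actinin, had 158, 175 and 163 FPKM in shTRMT6 and 58.5, 121 and 138 FPKM in shControl. FLNA, filamin A, which joins filaments at wide angles, had 88.6, 94.5 and 103 FPKM in shTRMT6 and 47.9, 67.75 and 190.1 FPKM in shControl. The control libraries spread over a wider range than the knockdown libraries in each. The log2 fold change was 0.71 (SE 0.34) for ACTN1, 0.73 (SE 0.31) for ACTN4 and 0.16 (SE 0.43) for FLNA, none past the threshold. Without shControl replicate 3 the values were 1.07, 0.97 and 0.73 and all 3 were past it. Without shControl replicate 1 they were 0.30, 0.35 and -0.25, none past it. With median scaling ACTN1 was at 0.21 and ACTN4 at 0.24. FLNA turned to -0.33 with median scaling and to -0.58 with trends removed.

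Of the ERM proteins, which link filaments to the plasma membrane, EZR had 90.3, 75.3 and 85.3 FPKM in shTRMT6 and 31.1, 52.5 and 132 FPKM in shControl. Its log2 fold change was 0.46 (SE 0.44), -0.03 with median scaling, 0.00 without shControl replicate 1, and 1.03 and past the threshold without shControl replicate 3. MSN was low, at 13.1, 16.7 and 10.4 FPKM in shTRMT6 and 12.8, 12.95 and 25.7 FPKM in shControl (log2 fold change -0.28, SE 0.34, 0.03 without shControl replicate 3 and -0.91 with trends removed). RDX was listed at 0, 3.31 and 0 FPKM in shTRMT6 and at 0 in all 3 shControl libraries, and its value of 3.31 rests on about 23 reads by estimate. A gene listed at 0 in such a table can be a failed estimate, so no fold is given.

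Focal adhesion and assembly proteins gave no common direction. CTTN, cortactin, which stabilises branches, had 136, 148 and 143 FPKM in shTRMT6 and 47.8, 66.0 and 143 FPKM in shControl (log2 fold change 0.88, SE 0.36). TLN1, talin, which activates integrins, had 13.8, 15.0 and 14.4 FPKM in shTRMT6 and 4.35, 8.07 and 12.7 FPKM in shControl (log2 fold change 0.82, SE 0.37). ZYX, zyxin, had 213, 249 and 169 FPKM in shTRMT6 and 447, 282 and 251 FPKM in shControl (log2 fold change -0.60, SE 0.27). For these 3 genes the sign was the same without shControl replicate 3, at 1.33, 1.14 and -0.77, and all were then past the threshold. Without shControl replicate 1 they were at 0.55, 0.46 and -0.35, none past it. With median scaling CTTN was at 0.39, TLN1 at 0.37 and ZYX at -1.10, of which ZYX was past it, and TLN1 was at -0.24 with trends removed. VCL, vinculin, had 13.75, 17.4 and 12.75 FPKM in shTRMT6 and 16.0, 8.73 and 38.6 FPKM in shControl (log2 fold change -0.27, 0.27 without shControl replicate 3 and -1.07 with trends removed). VASP, which speeds filament growth at adhesions, had 73.2, 75.6 and 84.7 FPKM in shTRMT6 and 74.0, 66.88 and 100.63 FPKM in shControl, with groups that overlapped (log2 fold change -0.03).

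**Figure D4:**
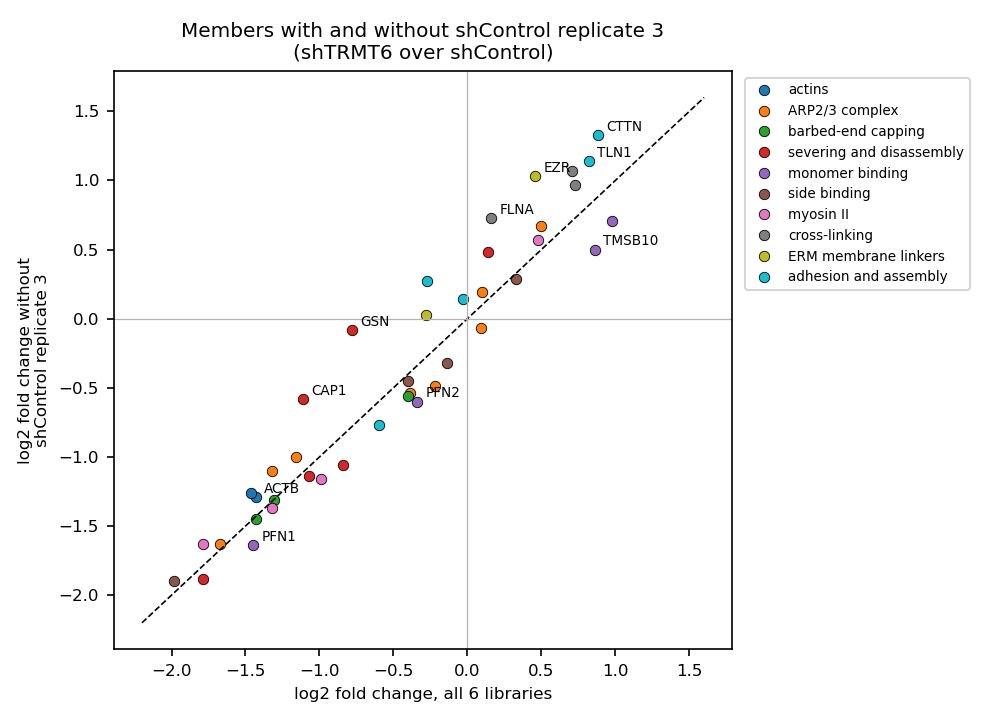
Log2 fold change of each tested member, shTRMT6 over shControl, with all 6 libraries on the x axis and without shControl replicate 3 on the y axis, coloured by class; the dashed line marks equal values. Members on the lower left, such as ACTB and PFN1, stay near the line, while CAP1, GSN, EZR and FLNA lie well above it.

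Coding length is given beside the change because they moved together over all tested genes, with a Pearson's r of 0.33 across 11410 genes that share the same 6 libraries. Of the 14 members with under 600 nt, 9 were lower and 1 higher, with a median log2 fold change of -1.03, beside -0.12 over the 1567 tested genes of that length, of which 22.0% were lower and 11.7% higher. Of the 13 members from 600 to below 1200 nt, 5 were lower and 0 higher (median -0.40), where 15.8% of all such genes were lower and 18.2% higher (median 0.09). Of the 8 from 1200 to below 2400 nt, 1 was lower and 0 higher (median -0.44), where 3.60% of all such genes were lower and 30.3% higher (median 0.50). None of the 6 members of at least 2400 nt passed in either direction (median 0.59), where 0.895% of all such genes were lower and 41.4% higher (median 0.83). With smooth trends of level and coding length removed in each library, 17 members were lower, where 13.7% of 11410 genes were, and 3 higher, where 13.5% were. The 3 were TMSB4X (0.59), TMSB10 (0.69) and TPM4 (0.82).

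**Figure D5:**
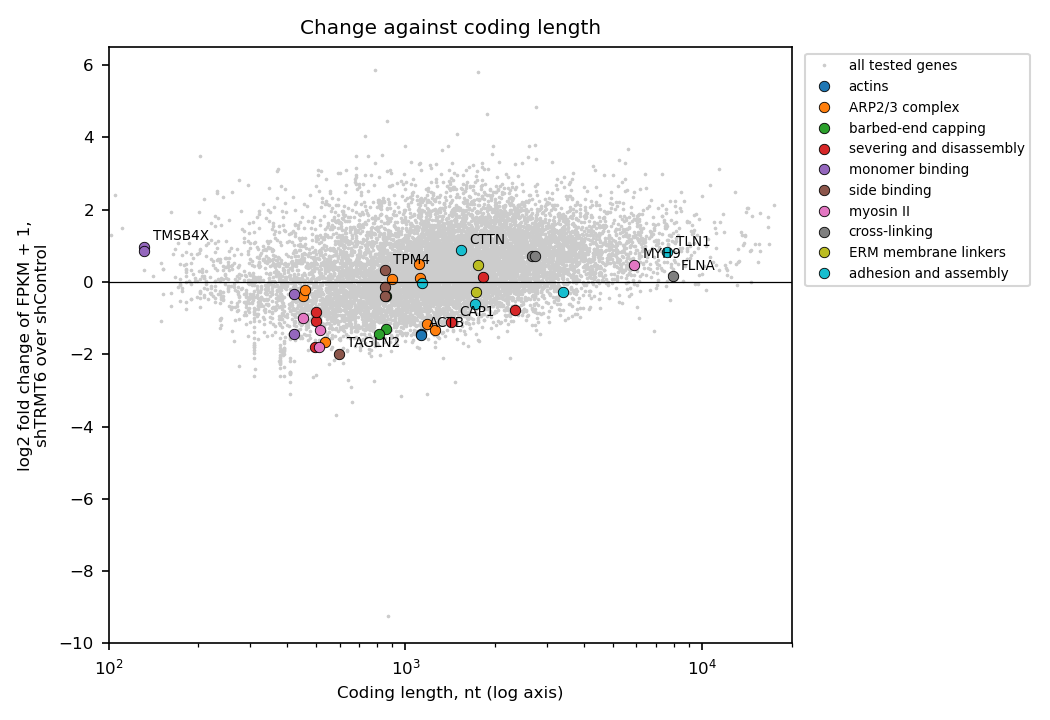
Log2 fold change of FPKM + 1, shTRMT6 over shControl, against coding length in nt on a log axis, with all tested genes in grey and members coloured by class. TAGLN2 at 597 nt is lowest, at -1.98, the thymosins at 132 nt lie at 0.86 and 0.98, and the longest members, FLNA, TLN1 and MYH9, lie above 0.

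Genes around the 42 members were listed by role, with earlier results of these data known, and were read from the same fit. The adjusted p-values given for them therefore describe the values. Of 166 such genes 137 were tested, and 31 were higher and 15 lower, where 26.5% of all tested genes were higher and 9.04% lower. With median scaling 17 were higher and 29 lower, where 13.1% of all tested genes were higher and 19.7% lower. The median log2 fold change was 0.29, beside 0.39 over all tested genes. With median scaling these medians were -0.17 and -0.07. Log2 fold changes of single related genes are from the unscaled fit and are not given with median scaling.

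Nucleators of unbranched filaments and activators of branching are read beside all tested genes, of which 26.5% were higher and 9.04% lower. Of 11 tested formins and other nucleators 3 rose, among them DIAPH1 (1.70 on the log2 scale, SE 0.30, adjusted p by limma 0.00352) and SPIRE2 (log2 fold change 2.06, SE 0.43, adjusted p by limma 0.00646). None of the 11 fell. Of 17 WASP and WAVE activators 3 rose and 0 fell, among them WASL at 0.88 (adjusted p by limma 0.0268) and WASHC1 at 1.43 (adjusted p by limma 0.00366), which has near-identical copies and is uncertain. Among other turnover and capping proteins 2 of 18 rose and 1 fell, CAPG, which caps without severing (log2 fold change -1.46, SE 0.29, adjusted p by limma 0.00537). TMOD2 rose by 1.10 and SVIL by 1.42 on the log2 scale.

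The counts of the remaining lists also stand beside all tested genes, of which 26.5% were higher and 9.04% lower. Of 16 other myosins 4 rose, with MYO18A at 2.56 and the light chain MYL5 at 2.06, and 2 fell, MYL9 and MYO1C (-0.70). Of 21 other cross-linkers and side binders 6 rose, with the spectrin SPTBN1 at 2.04, and 3 fell, with TAGLN at -1.56 and CNN3 at -0.91. TAGLN, the relative of TAGLN2, had 11.8, 21.7 and 14.5 FPKM in shTRMT6 and 49.9, 36.1 and 60.1 FPKM in shControl (adjusted p by limma 0.00545). Integrin adhesion proteins had 1 of 17 higher, ITGA3 (1.16), and 1 lower, LIMS1 (-0.96). In the SRF pathway, whose factors sense free actin monomers and switch on actin genes, 1 of 10 rose, the coactivator MRTFA (log2 fold change 0.94, SE 0.25, adjusted p by limma 0.018), and 1 fell, FHL2 (-0.74). Of 6 tested other actins and actin-related proteins, ARPC4 and ACTR1A (-1.17), a dynactin subunit, fell, and ACTA1, named after its value was seen and at most 4.54 FPKM, rose.

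The CArG box, the motif that SRF binds, was looked for in promoters from RefSeq (GRCh38.p14), taken as 250 bases before to 50 after the start site; its pattern reads the same on both strands. Where a gene had several entries only the first was searched, so a box at another start site would be missed. ACTB, ARPC1B, PFN2 and CTTN had no entry. Of the other 38 members 3 held it (7.89%), against 1.29% of 27305 promoters in the RefSeq table and 1.04% of the 9321 of tested genes. They are printed because they show which of the searched promoters carry the motif, with the box in capitals and up to 20 bases on each side. The stretches lie at chr17:81512864-81512913 on the minus strand, chrX:154374699-154374748 on the minus strand and chr19:16067345-16067394 on the plus strand.
ACTG1: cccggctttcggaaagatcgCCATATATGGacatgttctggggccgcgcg
FLNA: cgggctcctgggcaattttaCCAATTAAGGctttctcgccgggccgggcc
TPM4: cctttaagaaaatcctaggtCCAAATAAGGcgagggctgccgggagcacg
These 3 genes had log2 fold changes of -1.46, 0.16 and 0.33. A match is a description of these letters and no evidence of binding.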

How the data were processed

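RNase I digestion, with DNase I, and recovery of fragments above 17 nt preceded small RNA library construction, per the labels' protocols. The deposited values are FPKM per gene, made by the authors, per the file headers. Tools listed, with no version, in the submitters' processing notes are RSEM, STAR and fastp. For build, annotation, strand use and the placing of reads with several origins, the sources used here give nothing, and each could change the values of near-identical genes. Columns named NC and SH were read as shControl and shTRMT6, a reading that rests on the column names, with 0 columns unassigned.

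Of 20289 identifiers 19705 had a symbol. limma 3.58.1 in R 4.3.3 was fitted to log2(FPKM + 1) with 1 coefficient for the group and a trend of variance with level, over 11566 genes, with Benjamini-Hochberg adjustment over all of them and a threshold of 0.05. Fold changes on this scale understate those of low genes. Positions, coding lengths (principal transcript, without stop codon) and coding sequences came from GENCODE 29. Library depth was estimated from genes with 1 coding transcript, where 70.5% to 75.5% of the low values lay within 0.1 of a whole number of reads. On simulated data of 11566 genes, the fit recovered 10% of 100 genes changed 2-fold and 64% of 100 changed 4-fold. There were 0 false calls among 74. No other simulated gene was changed, while 35.6% of the tested genes passed the threshold in the real data. The adjustment is stricter where fewer genes change, so these shares do not give the power of this comparison. The members and lists were chosen with earlier results of these data known. From each related list, up to 2 genes past the threshold with the largest and 2 with the smallest fold change and a mean of at least 5 FPKM were named, besides ARPC4 and ACTA2; others are marked, and some results of these lists are not reported here. Alternatives were median scaling, quantile normalization, removal of trends with level and length (splines with 5 degrees of freedom), other filters, a pseudocount of 0.1, other thresholds, a replicate block and leaving out each library. Python 3.11.15, pandas 2.3.3, numpy 2.4.6 and matplotlib 3.10.9 were used.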

Additional observations from a re-analysis of the deposited data

How the results depend on the processing

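Over all genes, 3069 were higher and 1046 lower. Median scaling gave 1520 higher and 2275 lower, quantile normalization 1602 and 1700, trend removal 1537 higher and 1564 lower, and a threshold of 0.01 gave 1421 and 473. A mean of at least 5 FPKM gave 2791 higher and 1051 lower among 10141 genes, and a threshold of 0.1 gave 3880 and 1381. Leaving out 1 library gave 1828 to 3270 higher and 587 to 1428 lower. The 41 tested members had 1 higher and 15 lower. Higher members numbered 0 with median scaling and at a threshold of 0.01, 2 with quantile normalization or a mean of at least 5 FPKM, 3 with trend removal and 4 at a threshold of 0.1. They ranged from 0 to 10 without 1 library (0 without shTRMT6 replicate 1 or 3, 10 without shControl replicate 3), and lower members from 14 to 22. Related genes, 31 higher and 15 lower, had 17 and 29 with median scaling, 20 higher with quantile normalization, 15 higher with trend removal, 15 and 7 at a threshold of 0.01, and 19 to 34 higher and 7 to 16 lower without 1 library; the fewest higher came without shTRMT6 replicate 3 and the fewest lower without shTRMT6 replicate 1.

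Median scaling moved the log2 ratio of class sums to -1.95 for actins, -1.15 for the Arp2/3 complex, -1.53 for capping, -1.67 for severing, -0.39 for monomer binding, -0.75 for side binding, -1.74 for myosin II, -0.69 for adhesion, -0.05 for cross-linking (0.45 unscaled) and -0.37 for ERM. The sign of monomer binding (0.10 unscaled), cross-linking and ERM turned. The cross-linking ratio ranged from 0.14 without shControl replicate 1 to 0.91 without shControl replicate 3. The ratio of the ERM class, 0.14, ranged from -0.19 to 0.84 without 1 library, and was 0.84 without shControl replicate 3. The correlation of deviations of same-numbered libraries was 0.012, 0.013 and 0.102, and that of differently numbered libraries ran from -0.143 to 0.127. So few values cannot settle whether the replicate numbers pair the libraries. With the replicate block, 3 members were higher, TMSB4X, TMSB10 and CTTN, and 16 lower. Of all 11566 tested genes 3146 were then higher and 1065 lower. The causes were not tested, beyond the fewer libraries or the shift of all genes that an alternative itself brings. At the estimated depth, MSN, VCL and GSN rest on 40 to 515 reads per library and are imprecise.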
